A study of Mus musculus with 8 samples.

Results

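Of the 112 tRNA-derived fragments (tRFs) in the deposited tables, 15 came from nuclear tRNA-Pro, the transfer RNAs that carry proline to the ribosome. They are every fragment whose parent is a nuclear tRNA with the anticodon AGG, CGG or TGG, and 1 fragment of mitochondrial tRNA-Pro was left out. The members were selected by the authors' false discovery rates (FDR) for the same contrast described here, so the values below describe the list and were not tested again. After cytokine exposure, 7 of the 15 were listed as higher and 8 as lower in the authors' deposited tables. Of all 112 listed tRFs, 29 were listed higher and 83 lower. Over all 31661 tRFs that the deposited FDR values imply were tested, 0.0916% were listed higher and 0.262% lower. The number of tested tRNA-Pro tRFs is not known, so the 7 and 8 of 15 cannot be set against these percentages.

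The samples were dissociated cells of islets of Langerhans, mainly beta and alpha cells per the labels, from C57BL/6NRj mice aged 12 weeks. The control group held 4 libraries of untreated cells. The cytokine group held 4 libraries of cells kept for 24 h with IL-1β at 0.1 ng/mL, TNF-α at 10 ng/mL and IFN-γ at 30 ng/mL, signals that immune cells release when they invade the islet in type 1 diabetes. All cells had been separated with trypsin and EGTA and cultured for 24 h beforehand. The labels do not say whether libraries came from separate animals or cultures, so spreads are between libraries and may be technical. The tables hold tRNA fragments only, so the labelled cell types could not be checked against marker genes.

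tRNAs fold into a cloverleaf with a D arm, an anticodon arm and a T arm, and nucleases cut them in the exposed loops. A 5-tRF or 5-tRH begins at the first base, a 5-tRH being cut in the anticodon loop, and an internal fragment (i-tRF) has lost both ends. tRNAs that share an anticodon but differ elsewhere in sequence are called isodecoders. For brevity, each named tRNA sequence is called an isodecoder here, also where the anticodons differ. Among the parents here, only Pro-TGG-1 and Pro-TGG-2 share an anticodon. In these tRNA-Pro the deposited anticodon position is 33 to 35 counted from the 5′ end, which puts the anticodon loop at 31 to 37.

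The 15 fragments fell into 3 classes by where they ended. All 6 that ended at position 52 were listed higher. All 5 that ended at position 54 were listed lower, as were the 3 that ended at position 30 or 31, and the remaining one, Pro-TGG-2 1-38, was listed higher. Fragments are named by isodecoder, first position and last position.

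**Figure D1:**
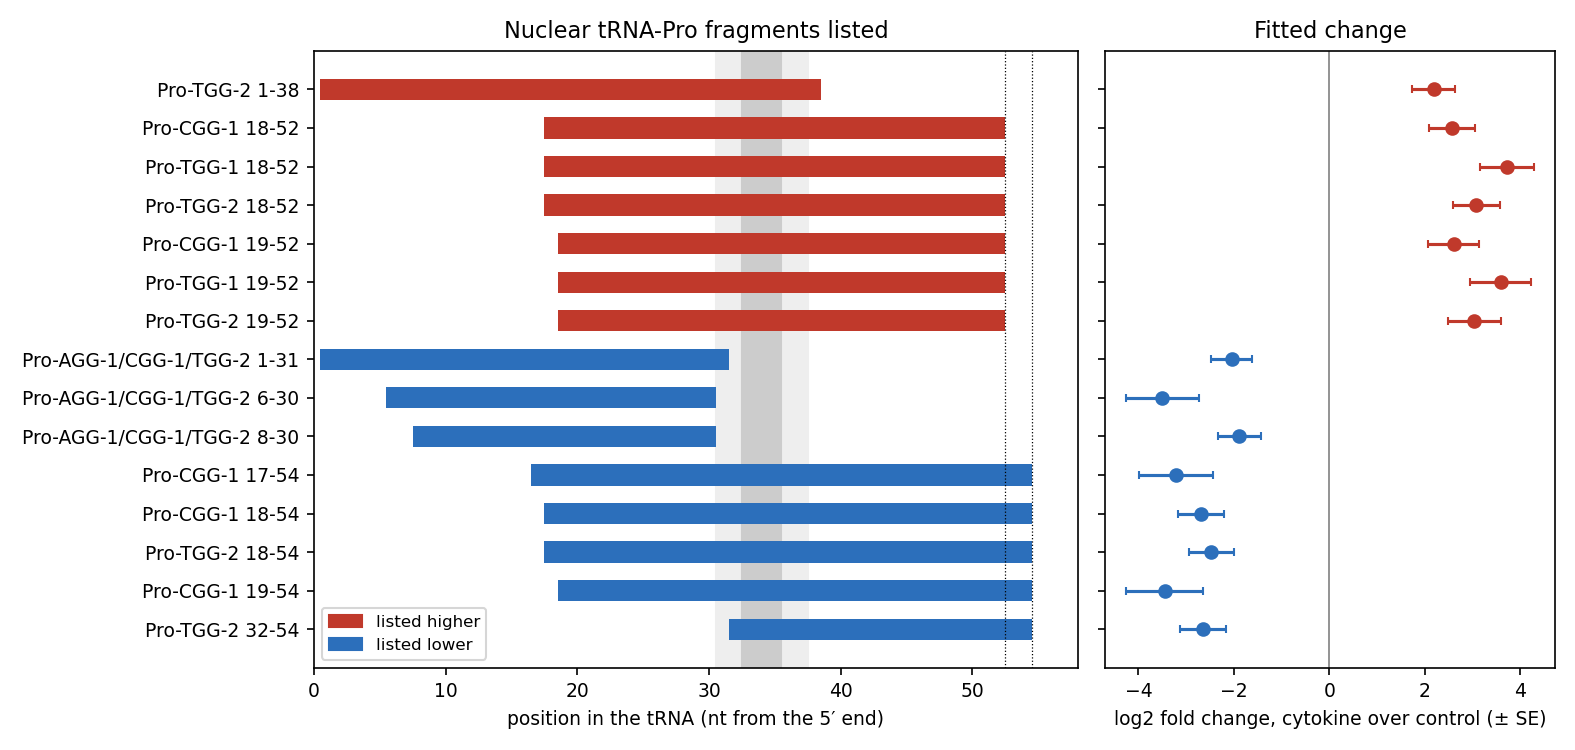
Left, the stretch of the tRNA covered by each of the 15 fragments, in positions from the 5′ end (light grey, anticodon loop; dark grey, anticodon; dotted lines, ends at 52 and 54). Right, log2 fold change of cytokine over control ± SE from edgeR; the 6 fragments ending at 52 lie to the right of 0 and the 5 ending at 54 to the left.

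The sequences show how little separates the members. Of the 4 isodecoders, 3 gave a fragment of positions 18 to 52, and these are printed with the anticodon in capitals.
Pro-CGG-1 18-52: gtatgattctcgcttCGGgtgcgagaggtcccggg
Pro-TGG-2 18-52: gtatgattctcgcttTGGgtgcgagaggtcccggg
Pro-TGG-1 18-52: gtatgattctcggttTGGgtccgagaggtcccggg
Counted from the 5′ end of the tRNA, the change from Pro-CGG-1 to Pro-TGG-2 is C33T, the first anticodon base, so the 35 bases are 97.1% identical. From Pro-TGG-2 to Pro-TGG-1 the changes are C30G and G38C, which face each other at the end of the anticodon stem next to the loop, and the identity is 94.3%.

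Internal fragments of the same isodecoder and start that were listed in opposite directions differed by 2 bases at the 3′ end. The fragments of positions 18 to 54 are those of 18 to 52 plus TT, printed in capitals, which are the first bases of the T loop.
Pro-CGG-1 18-54: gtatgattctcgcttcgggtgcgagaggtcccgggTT
Pro-TGG-2 18-54: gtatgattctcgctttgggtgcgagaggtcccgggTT

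The fragments of the 5′ side are shown because their sequence cannot tell the parents apart unless they reach the anticodon, again in capitals.
Pro-AGG-1/CGG-1/TGG-2 1-31: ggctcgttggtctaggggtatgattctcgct
Pro-TGG-2 1-38: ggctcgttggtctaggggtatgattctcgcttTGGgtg
Pro-AGG-1/CGG-1/TGG-2 8-30: tggtctaggggtatgattctcgc
The first and the third match 13 tRNA genes each. Pro-AGG-1 was named only in the 3 fragments that stop before the anticodon and share their sequence with Pro-CGG-1 and Pro-TGG-2, so no listed fragment was particular to it.

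The 15 fragments were assigned to 14 tRNA genes, 6 of Pro-AGG-1, 3 of Pro-CGG-1, 4 of Pro-TGG-2 and 1 of Pro-TGG-1. In RefSeq's GRCm38.p6 annotation, the build named in the submitters' processing notes, 13 of the 14 matched the only tRNA-Pro gene of that anticodon on that chromosome, and Pro-TGG-2-2 had 2 candidates on chromosome 11. The single Pro-TGG-1 gene matched n-TPtgg8 at chr7:98815415-98815486, and the Pro-AGG-1-4 gene lay close to it at chr7:98815676-98815747. The Pro-CGG-1 genes matched chr1:165642271-165642342, chr11:69040385-69040456 and chr17:23540915-23540986. The 3 matched Pro-TGG-2 genes were at chr3:51358354-51358425, chr14:51090647-51090718 and chr17:23546476-23546547. None of the 13 overlapped a gene or exon of GENCODE vM21 on GRCm38, so all were intergenic in that annotation.

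Levels are given in CPM, reads per 1000000, with read counts scaled by an effective library size recovered from the authors' values. Those sizes ran from 372260 to 791365 reads in the controls and from 367454 to 939108 reads with cytokines, so both groups covered a similar range. The tRNA-Pro fragments took 23.4% to 51.4% of the listed reads in the controls and 27.1% to 32.2% with cytokines. A level of 3 reads stands for 3.20 to 8.16 CPM, depending on the library, and covers counting error only. Since 1 read is 1 whole fragment, levels of different fragments need no scaling by length. A lower level cannot be told apart from fewer cells of a type that holds the fragment.

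Positions 18 to 52 of Pro-TGG-2 were the most abundant of the fragments ending at 52. The controls stood at 52.5, 18.95, 53.7 and 75.8 CPM in replicates 1 to 4, and the cytokine libraries at 248, 168, 580 and 688 CPM. Every cytokine library was above every control, and replicates 3 and 4 were the highest. The log2 fold change was 3.08 ± 0.49 (SE), or 8.43-fold (edgeR's quasi-likelihood fit over all 112 listed tRFs, as for all fold changes below).

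Pro-CGG-1 18-52 had 57.04, 21.5, 29.5 and 90.9 CPM in the controls and 142, 172, 459 and 413 CPM with cytokines. The groups did not overlap, and cytokine replicates 3 and 4 were again the highest. Its log2 fold change was 2.57 ± 0.48 (SE). Pro-TGG-1 18-52, which comes from a single gene, was rare in the controls, with 4, 1, 3 and 7 reads, or 6.00, 1.26, 8.06 and 10.6 CPM. With cytokines it had 16, 22, 60 and 127 reads, or 43.5, 47.3, 105 and 135 CPM. Its log2 fold change of 3.72 ± 0.57 (SE), or 13.2-fold, was the largest fitted value among the 15, but it rests on 15 control reads in all.

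The same 3 isodecoders gave fragments that began 1 base later, at position 19. Pro-TGG-2 19-52 ranged from 5.05 to 36.0 CPM in the controls and from 59.9 to 285 CPM with cytokines. For Pro-CGG-1 19-52 the ranges were 7.58 to 31.8 and 38.7 to 170 CPM, and for Pro-TGG-1 19-52 they were 2.53 to 10.6 and 23.7 to 120 CPM. Their log2 fold changes were 3.04, 2.60 and 3.58, each within its SE of the value for the fragment starting at 18. The 6 fragments ending at 52 had a summed level of 149 ± 80.1 CPM in the controls and 1138 ± 690 CPM in the cytokine group (SD, n = 4 libraries each). The large spread with cytokines lay between replicates 1 and 2, at 566 and 519 CPM, and replicates 3 and 4, at 1673 and 1796 CPM.

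The fragments ending at 54 showed the reverse order of groups. Pro-TGG-2 18-54 stood at 91.6, 53.1, 59.1 and 164 CPM in the controls and at 16.3, 10.8, 21.0 and 17.04 CPM with cytokines. Pro-CGG-1 18-54 stood at 75.0, 54.3, 51.0 and 129 CPM in the controls and at 13.6, 8.61, 12.3 and 12.8 CPM with cytokines. In both, every cytokine library was below every control, and control replicate 4 was the highest. The log2 fold changes were -2.47 ± 0.47 and -2.69 ± 0.48 (SE).

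Pro-TGG-2 32-54 is a short fragment of 23 bases that begins inside the anticodon loop. Its controls were at 55.5, 92.2, 56.4 and 62.1 CPM and its cytokine libraries at 5.44, 15.1, 8.77 and 11.7 CPM, with no overlap. The log2 fold change was -2.65 ± 0.48 (SE). The 5 fragments ending at 54 had a summed level of 265 ± 89.3 CPM in the controls and 41.0 ± 3.83 CPM in the cytokine group (SD, n = 4 libraries each). Unlike that of the fragments ending at 52, this sum was nearly level across the cytokine libraries. It rests on few reads there, such as 2, 7, 5 and 11 of Pro-TGG-2 32-54, and the single fragments were less even.

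The remaining fragments ending at 54, both from Pro-CGG-1, were rare. Positions 17 to 54 had 11, 17, 5 and 14 control reads and 0, 4, 0 and 0 with cytokines. All 4 cytokine reads were in replicate 2. Over all libraries the ratio of pooled reads of control over cytokine, scaled to library size, was 11.1 (exact 95% interval 4.04 to 42.2, counting error only). Without cytokine replicate 2 the level was at least 11.8-fold lower (floor of 3 reads over the group, error of the control reads not included). The fitted log2 fold change of -3.22 ± 0.78 (SE) was -2.59 without cytokine replicate 4. Positions 19 to 54 had 7, 4, 4 and 12 control reads but only 2 reads with cytokines, both in replicate 4. The ratio of pooled reads of control over cytokine, scaled to library size, was 12.7 (exact 95% interval 3.19 to 110, counting error only), and without that replicate the level was at least 5.07-fold lower.

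**Figure D2:**
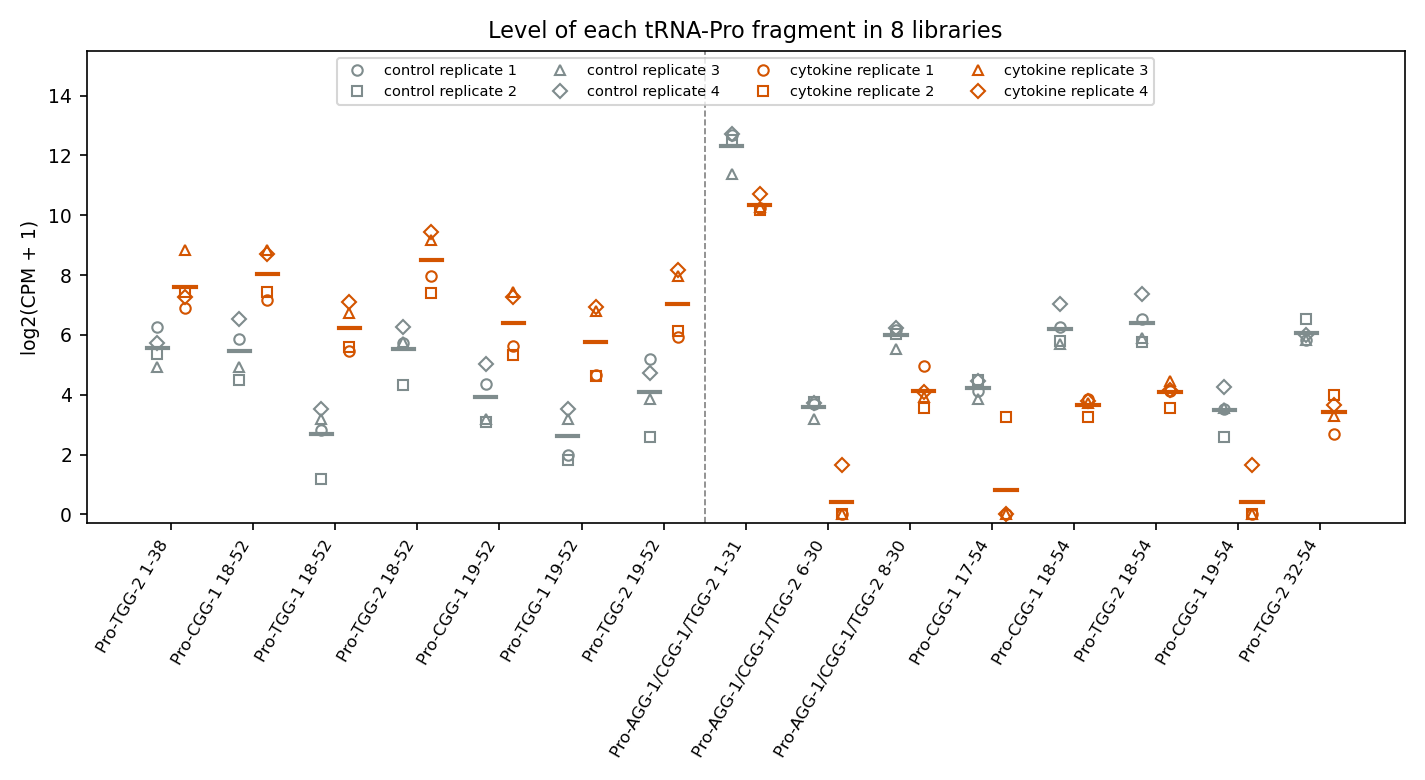
Level of each of the 15 fragments, as log2(CPM + 1), in the 4 control (grey) and 4 cytokine (orange) libraries, with bars at the group means; fragments listed higher are left of the dashed line. In all 15 the points of both groups do not overlap, and cytokine replicates 3 and 4 lie above 1 and 2 in all 6 fragments ending at 52.

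The groups did not overlap in CPM for any of the 15 members. The same held for 98.2% of all listed tRFs, which were listed for this difference, so nothing follows from it. The 7 members listed higher had a median log2 fold change of 3.04, against 3.11 for all 29 tRFs listed higher. The 8 listed lower had a median of -2.67, against -2.60 for all 83 listed lower. By the DESeq test in the authors' deposited tables, 12 of the 15 had an adjusted p below 0.05, against 102 of all 112 listed tRFs (1 of which had none given). The other 3 were those with the fewest reads, Pro-CGG-1 17-54, Pro-CGG-1 19-54 and Pro-AGG-1/CGG-1/TGG-2 6-30. The members nearest the threshold were Pro-CGG-1 17-54 and Pro-AGG-1/CGG-1/TGG-2 8-30, both with an FDR of 0.0353 in the authors' deposited tables, and fragments outside it were not analysed here.

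The directions depend on the library sizes, but a ratio of reads within a library does not. This comparison was chosen after the values were seen. In Pro-CGG-1 the fragment of positions 18 to 52 had 0.760, 0.395, 0.579 and 0.706 reads for each read of 18 to 54 in the controls. With cytokines this ratio was 10.4, 20.0, 37.4 and 32.3. In Pro-TGG-2 it was 0.574, 0.357, 0.909 and 0.463 in the controls and 15.2, 15.6, 27.6 and 40.4 with cytokines. Thus the longer fragment had more reads in each of the 4 controls, and the shorter had at least 10.4 times as many in each cytokine library. The log2 ratio differed between groups by 5.24 in Pro-CGG-1, from -0.76 ± 0.42 to 4.49 ± 0.83, and by 5.39 in Pro-TGG-2, from -0.88 ± 0.57 to 4.50 ± 0.68 (SD, n = 4 per group). The cytokine reads of 18 to 54 numbered 28 and 39 in all, which limits the precision of these ratios. Both fragments of each ratio were listed on this contrast, in opposite directions, so the sign of the difference followed from the listing. No test was made.

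For the first base the ratios overlapped between groups. Pro-CGG-1 had 2.83 to 3.67 reads starting at 18 for each read starting at 19 in the controls (end at 52) and 2.68 to 4.44 with cytokines, a log2 difference of 0.02. Pro-TGG-2 had 1.46 to 4 and 2.35 to 4.14, a log2 difference of -0.04. For Pro-TGG-1 the ranges were 0.5 to 2 and 0.952 to 2, a log2 difference of 0.48 from only 29 control reads. The groups thus overlapped in all 3 isodecoders, and no test was made.

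**Figure D3:**
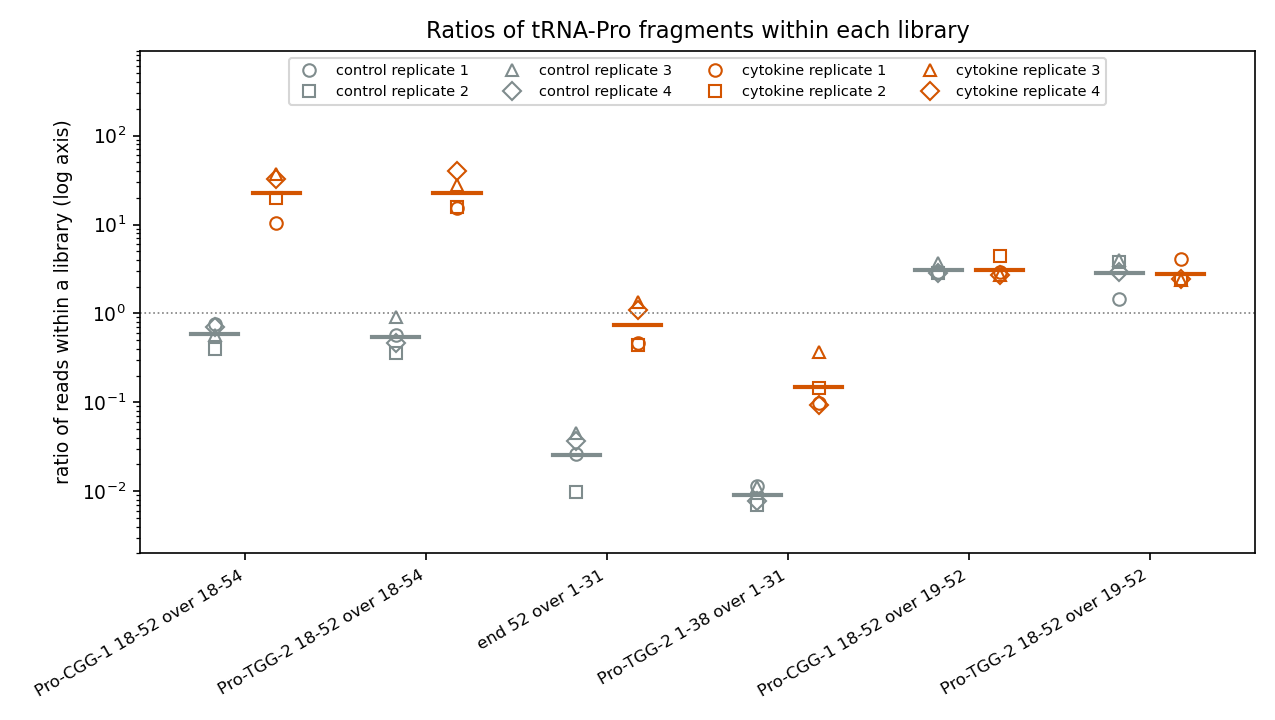
Ratio of reads of 1 fragment, or of the 6 ending at 52, to another within each library (log axis), for control (grey) and cytokine (orange) libraries, with bars at geometric means. Ratios of 18-52 over 18-54 lie below 1 in all controls and at 10.4 or more in all cytokine libraries, and ratios of start 18 over start 19 overlap between the groups.

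The fragment of positions 1 to 31 was the most abundant member in every library. The controls stood at 6595, 5835, 2681 and 6700 CPM and the cytokine libraries at 1211, 1160, 1240 and 1660 CPM. Control replicate 3 was far below the other controls but still above every cytokine library. The log2 fold change of -2.05 ± 0.43 (SE) was -2.27 without that control. Positions 8 to 30, which lie within it, were at 70.5, 64.4, 45.7 and 74.3 CPM in the controls and 29.9, 10.8, 14.0 and 16.0 CPM with cytokines, a log2 fold change of -1.89 ± 0.46 (SE). Positions 6 to 30 had 29 control reads and 2 cytokine reads, both in replicate 4. Their pooled ratio of control over cytokine was 13.6 (exact 95% interval 3.45 to 118, counting error only), and without that replicate the level was at least 5.45-fold lower.

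Pro-TGG-2 1-38 shares its first base with 1-31 and ends 7 bases later, past the anticodon loop. It stood at 75.0, 40.4, 29.5 and 51.5 CPM in the controls and at 120, 170, 461 and 154 CPM with cytokines. Cytokine replicate 3 was far above the others, and the log2 fold change of 2.19 ± 0.45 (SE) was 1.58 without it. Within a library there were 0.00693 to 0.0114 reads of 1-38 for each read of 1-31 in the controls and 0.0930 to 0.372 with cytokines. The longer 5′ fragment was thus the rarer one in all 8 libraries. Its parent is known to be Pro-TGG-2, whereas 1-31 pools 3 isodecoders, so the ratio does not compare products of 1 tRNA. The terms of this ratio were also listed in opposite directions on this contrast, and no test was made.

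For each read of 1-31, the 6 fragments ending at 52 together had 0.0264, 0.00974, 0.0451 and 0.0366 reads in the controls and 0.467, 0.447, 1.35 and 1.08 with cytokines. The log2 ratio went from -5.29 ± 0.98 to -0.43 ± 0.82 (SD, n = 4 per group), a difference of 4.86. In cytokine replicates 3 and 4 the summed fragments ending at 52 thus outnumbered the 5′ fragment. Both terms were listed on this contrast, in opposite directions, so the sign of the difference followed from the listing and no test was made. Over all 15 members the level was 5991 ± 2014 CPM in the controls, of which 1-31 made up most, and 2742 ± 940 CPM with cytokines.

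The order of levels was changed below the first rank. In the controls 1-31 was followed by Pro-TGG-2 18-54 (91.9 ± 50.8), Pro-CGG-1 18-54 (77.3 ± 35.9), Pro-TGG-2 32-54 (66.6 ± 17.4) and 8-30 (63.7 ± 12.7 CPM, SD, n = 4). With cytokines it was followed by Pro-TGG-2 18-52 (421 ± 252), Pro-CGG-1 18-52 (297 ± 163), Pro-TGG-2 1-38 (226 ± 158) and Pro-TGG-2 19-52 (165 ± 118 CPM, SD, n = 4). Apart from 1-31, which stood clear of the second rank in both groups, every fragment overlapped in range with its neighbour in the order.

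For the fragment of positions 18 to 52, the shares of the major forms, Pro-TGG-2 and Pro-CGG-1, overlapped between the groups. Shares are of the reads of the 3 listed isodecoders, and any unlisted sequence of these positions, such as one of Pro-AGG-1, is not counted. Pro-TGG-2 gave 48.1 ± 7.25% of these reads in the controls and 51.7 ± 6.25% with cytokines, and Pro-CGG-1 gave 46.1 ± 9.23% and 37.7 ± 5.62% (SD, n = 4 per group). These differences were within 1 SD of the controls. For Pro-CGG-1 this rests on control replicate 3, at 32.4% from 34 reads. Control replicates 1, 2 and 4 were at 49.4%, 51.5% and 51.3%, above the cytokine range of 32.7% to 44.4%. Without control replicate 3 the control mean was 50.7% for Pro-CGG-1 and 44.5% for Pro-TGG-2, and this difference was not tested. Pro-TGG-1 gave 5.19%, 3.03%, 8.82% and 5.98% in the controls and 10.1%, 12.2%, 9.19% and 10.9% with cytokines. The groups did not overlap, but the control shares rest on 1 to 7 reads, and in control replicate 3 the exact 95% interval (Clopper-Pearson) ran from 1.86% to 23.7%. Taken over all fragments ending at 52, the Pro-TGG-1 share was 8.45% in the controls and 13.2% with cytokines, and the groups' ranges, 5.17% to 13.3% and 12.0% to 14.2%, overlapped. The fragments of positions 18 to 54 had a similar balance of the major forms, with 0.787 to 1.02 reads of Pro-CGG-1 for each of Pro-TGG-2 in the controls and 0.583 to 0.833 with cytokines.

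**Figure D4:**
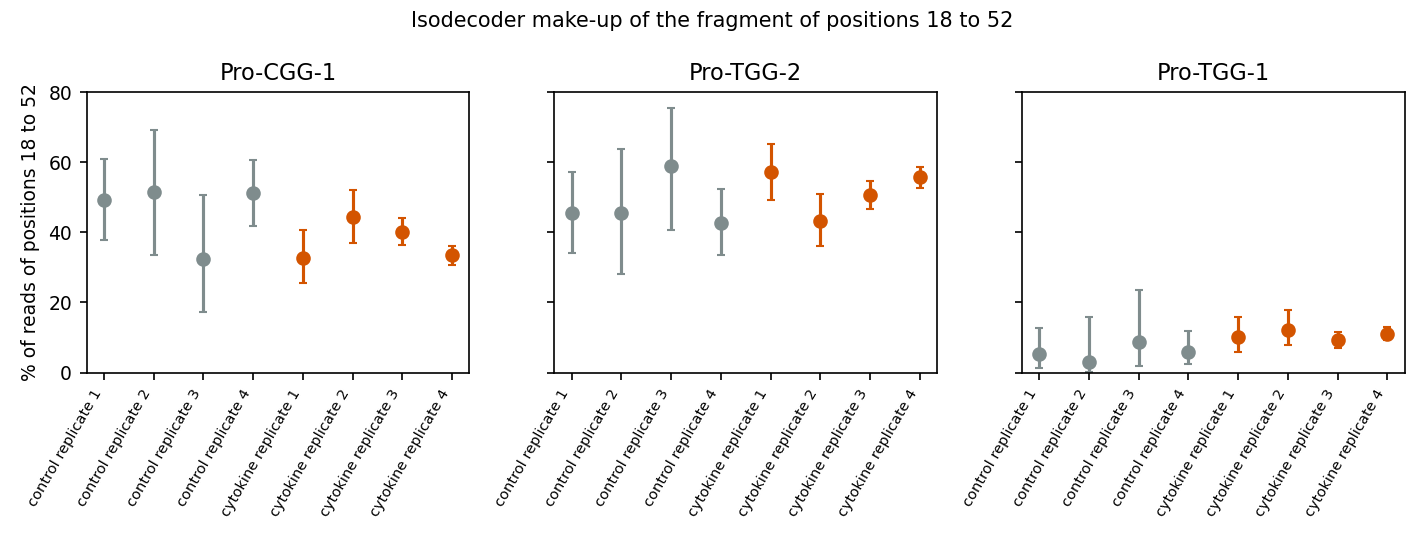
Share of each of the 3 listed isodecoders in their summed reads of positions 18 to 52, in percent, in each library. Bars are exact 95% binomial intervals (counting error only), with controls in grey and cytokine libraries in orange. The point values of Pro-TGG-2 overlap between groups, and those of Pro-CGG-1 do so only through control replicate 3. Those of Pro-TGG-1 do not overlap (3.03% to 8.82% in the controls, 9.19% to 12.2% with cytokines), although its intervals are wide in the controls.

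After group means were subtracted from log2(CPM + 1), the 6 fragments ending at 52 varied together over the 8 libraries, with Pearson's r from 0.72 to 0.97 (median 0.87) over their 15 pairs. Between them and the 3 most read fragments ending at 54, r ran from -0.34 to 0.85 (median 0.53) over 18 pairs. The libraries share their sizes and the isodecoders share most of their sequence, so these values are a description. The listed fragments without a proline parent most like Pro-TGG-2 18-52 were Arg-CCG-2 43-76 (r = 0.96), Arg-TCG-4 35-76 (0.88) and Arg-TCG-3 29-76 (0.85), all of which were listed lower. Those most like 1-31 were Cys-GCA-3/Cys-GCA-7 22-68 (r = 0.87), Thr-TGT-2/Thr-TGT-3 16-55 (0.86) and His-GTG-2/His-GTG-3 17-53 (0.82). Fragments that varied alike within the groups were thus not always listed in the same direction. The named fragments had the highest r of all listed ones without a proline parent, and picking the highest favours large values. Against the other tRNA-Pro members, r of Pro-TGG-2 18-52 ran from -0.60 to 0.95 (median 0.65). For 1-31 it ran from -0.03 to 0.62 (median 0.37).

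Listed internal fragments of other nuclear tRNAs also ended in this stretch. Of those ending at position 52, 3 of 3 were listed higher, and at position 53 it was 4 of 5. At position 54 it was 1 of 11 and at position 55 it was 0 of 3. Over all 112 listed tRFs, 29 were listed higher and 83 lower, so most of the list was lower. Positions are counted along tRNAs of different structure, so the same number is not always the same site, and no test of a difference from tRNA-Pro was made.

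Library sizes decide how far these directions reach. When TMM factors or DESeq2 size factors were taken from the listed tRFs themselves, the log2 fold changes of all listed tRFs shifted upward by a median of 1.73 and 1.95, because both set the typical listed tRF near no change and most were listed lower. All 7 members listed higher stayed above 0 under every scaling tried. Each of these scalings raised their fold changes, so they could not have fallen below 0 and nothing follows from it. All 8 listed lower stayed below 0, except that 8-30 had a log2 fold change of 0.02 with the DESeq2 size factors, and 1-31 was at -0.12 there. The ratios within a library are the same under each of these scalings.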

How the data were processed

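Small RNA was sequenced after an rtStar pretreatment for tRFs and library construction with the QIAseq miRNA kit, per the labels' protocols. Whether its molecular identifiers were collapsed is not given in the sources used here. Bowtie 1 and GRCm38.p6 are named in the submitters' processing notes. Deposited values are raw read counts of distinct sequences, the authors' edgeR log2 fold changes and mean log2 CPM, the deposited DESeq base mean (a normalized signal), and the authors' p-values and FDR, per the file headers. Only listed tRFs are in them.

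The 8 effective library sizes were fitted so that edgeR's average log CPM (prior count 2) returned the deposited values within 1e-06, with a dispersion of 0.246. The fit was checked on simulated sizes. These sizes may include the authors' scaling factors. Counts of all 112 tRFs were fitted with edgeR 4.0.16 (glmQLFit, treatment only, no further factor, common dispersion 0.162), and SE was taken as the fold change (log2) over the root of F. Fold changes differed from those deposited by a median of 0.00218. No p-value is given, since the fragments were listed on this contrast. Listing also favours chance differences, so fold changes tend to be too large, most for fragments with few reads. The dispersion behind SE came from the listed tRFs only and was below the 0.246 recovered from the deposited values. SE may therefore be too small.

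All 15 members are described by their values, and 13 had 50 or more reads. The rule for likeness took the 3 fragments without a proline parent with the highest r. The members, lists and comparisons were chosen with earlier results of these data known. Same-numbered libraries did not deviate together (r of -0.29, 0.17, 0.10 and 0.10 for numbers 1 to 4), so numbers were not taken as pairs. tRNA genes were matched to RefSeq by anticodon and chromosome.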

Additional observations from a re-analysis of the deposited data

Results flagged for a closer look

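In groups of 4 libraries, a highest or lowest library was marked when its gap to the next was a larger part of the group's range than Dixon's 95% critical value. This happened 12 times in 60 groups. About 1 in 20 would be marked by chance if values were normally distributed, which low counts and ratios need not be. Many of the groups also share fragments and libraries. Cytokine replicate 3 stood at 461 CPM in Pro-TGG-2 1-38, where the others reached 170 CPM (gap of 0.853 of the range). Cytokine replicate 4 was high in 1-31, at 1660 against 1240 CPM (0.841). Control replicate 3 was low in 6-30, at 8.06 CPM or 3 reads (0.863). In the cytokine group 6-30, Pro-CGG-1 17-54 and Pro-CGG-1 19-54 had reads in only 1 library each. Their gap was 1 of the range, as in any group with reads in only 1 library. The ratio of all fragments ending at 52 over all ending at 54 was low in control replicate 2, at 0.251 against 0.623 in the next (0.831). For Pro-CGG-1, the ratio of start 18 over start 19 was high in control replicate 3, at 3.67 (0.892), and in cytokine replicate 2, at 4.44 (0.88). For Pro-TGG-2 it was high in cytokine replicate 1, at 4.14 (0.95). In control replicate 3 the share of Pro-CGG-1 among listed fragments of positions 18 to 52 was low, at 32.4% (0.887), and that of Pro-TGG-2 high, at 58.8% (0.831), from 34 reads.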

How the results depend on the processing

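The 7 members above 0 and 8 below 0 kept those signs with listed totals as library sizes, TMM factors, the authors' DESeq size factors, DESeq2 as the tool, a prior count of 2 and each library left out. With DESeq2 size factors over the listed tRFs Pro-AGG-1/CGG-1/TGG-2 8-30 was at 0.0153, giving 8 and 7. Each change of library sizes raised the fold change of every member, so only members below 0 could change sign. Listed totals, the authors' DESeq factors and the prior count shifted the median of all listed tRFs by 0.62, 0.11 and 0.20. A filter of 50 reads left 13 members, 7 above and 6 below. With the replicate block (the replicate number beside treatment) the counts were 7 and 8, Pro-TGG-2 18-52 was at 2.99 and 1-31 at -1.98, and no sign changed. Over all fragments ending at 52, in place of 18 to 52 only, the Pro-TGG-1 share was 8.45% in the controls and 13.2% with cytokines. The other shares moved by less than 1 SD. The log2 ratio of fragments ending at 52 over 1-31 differed by 4.86, by 4.71 with all members listed higher over all listed lower, by 4.98 with Pro-TGG-2 18-52 alone, and by 4.40 to 5.14 with 1 library left out. For fragments ending at 52 over those ending at 54, added after the data were seen, it was 5.53, and 5.19 to 5.85 with 1 library left out. In all of these ratios the terms were listed in opposite directions, so the sign of the difference followed from the listing. Depth limits the fragments with under 50 reads most, since 3 reads stand for 3.20 to 8.16 CPM.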
